A study of Mus musculus with 13 samples.

Results

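STAT5A occupancy was compared with LSD1 occupancy in the presence of IL3, using the 2 STAT5A and the 2 LSD1 replicate lists of called regions. These are 4 of the 13 samples of a ChIP-seq series on Ba/F3 cells, an IL3-dependent mouse pro-B cell line. On the assembled chromosomes the 4 lists held 13572, 6280, 6476 and 11567 regions (STAT5A replicates 1 and 2, then LSD1 replicates 1 and 2). The 12 replicate lists of the series held 62686, a total not limited to the assembled chromosomes. The same treatment was used for all 4 samples, which differed in the antibody: Ba/F3 cells grown in 1 ng/mL IL3 went 6 h without the cytokine, after which 10 ng/mL was added back for 30 min. The other groups, used here as further readouts at the same regions, were STAT5A and LSD1 after 6 h without IL3 and the deacetylase HDAC3 in both conditions, with 2 replicates each. The cells are 1 transformed line, the lists hold no expression value with which to check the labelled cell type, and 1 input library was not analysed here.

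STAT5A acts downstream of the IL3 receptor and its kinase JAK2. Once phosphorylated it dimerises, enters the nucleus and binds a palindromic sequence, TTC and GAA separated by 3 bases, at genes such as Cish, Socs2 and Pim1. LSD1 (gene Kdm1a) is a histone demethylase with no sequence preference of its own. It is carried to promoters and enhancers by CoREST and by transcription factors such as GFI1B, and acts there with histone deacetylases. In what follows, a merged region is a stretch covered by overlapping regions of the 4 lists. It is called STAT5A alone when both STAT5A replicates and neither LSD1 replicate had it, LSD1 alone in the reverse case, and shared when all 4 lists had it. Absence from a list means that no region passed the authors' caller there, at a threshold that was not given and may differ between libraries. The 2 STAT5A libraries stood apart from each other, with replicate 2 closer to the LSD1 lists in position and sequence, so that the main class and gene results are also given without each of them.

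Promoters show the distinction between the factors at the level of sequence. RefSeq promoter windows, from 250 bases before to 50 bases after a gene's start, were available for 27025 genes (GRCm38.p6, the patch release of mm10). Of 32851 windows, 146 (0.444%) overlapped both STAT5A lists and neither LSD1 list, 583 (1.77%) the reverse and 91 (0.277%) all 4 lists. These are called windows of STAT5A alone, of LSD1 alone and shared windows. The windows shown first are those of Cish, a feedback inhibitor of cytokine receptors, and Ubash3b, a phosphatase-like regulator of tyrosine kinase signalling. They had the best mean places by score among the 146 STAT5A windows. The class of a window can differ from that of the merged region at the same start, as it did at Cish. Csf2rb2, which encodes the IL3-specific beta receptor chain, stood at place 33 and is shown for its role in the pathway. Capitals mark each match to TTCNNNGAA, and all sequences run 5′ to 3′ on the gene's strand.
Cish: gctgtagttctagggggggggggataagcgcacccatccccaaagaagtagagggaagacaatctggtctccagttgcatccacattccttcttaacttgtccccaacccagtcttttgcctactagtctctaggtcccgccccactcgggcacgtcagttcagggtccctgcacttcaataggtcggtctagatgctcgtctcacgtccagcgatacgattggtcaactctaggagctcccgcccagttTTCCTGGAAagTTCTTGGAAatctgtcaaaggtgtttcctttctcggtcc
Ubash3b: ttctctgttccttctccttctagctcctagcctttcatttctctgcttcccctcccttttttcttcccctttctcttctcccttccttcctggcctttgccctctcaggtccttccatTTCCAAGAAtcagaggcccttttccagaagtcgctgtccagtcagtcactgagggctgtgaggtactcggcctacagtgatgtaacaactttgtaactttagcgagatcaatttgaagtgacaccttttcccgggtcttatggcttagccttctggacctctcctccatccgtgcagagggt
Csf2rb2: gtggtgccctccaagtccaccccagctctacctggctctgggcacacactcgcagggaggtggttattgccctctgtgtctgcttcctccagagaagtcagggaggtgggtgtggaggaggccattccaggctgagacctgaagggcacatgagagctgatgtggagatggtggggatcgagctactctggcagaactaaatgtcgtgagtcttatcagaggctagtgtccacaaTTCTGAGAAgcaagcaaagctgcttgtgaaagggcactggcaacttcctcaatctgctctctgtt
The Cish window lies at chr9:107296409-107296708 on the plus strand, the Ubash3b window at chr9:41158013-41158312 on the minus strand and the Csf2rb2 window at chr15:78305672-78305971 on the minus strand. For contrast, Tigar (a fructose bisphosphatase that lowers glycolytic flux) and Gadd45a (a stress-response growth arrest protein) held the first and the third place among the 583 LSD1 windows. Zfp398, a zinc finger gene, held the first place among the 91 shared windows.
Tigar: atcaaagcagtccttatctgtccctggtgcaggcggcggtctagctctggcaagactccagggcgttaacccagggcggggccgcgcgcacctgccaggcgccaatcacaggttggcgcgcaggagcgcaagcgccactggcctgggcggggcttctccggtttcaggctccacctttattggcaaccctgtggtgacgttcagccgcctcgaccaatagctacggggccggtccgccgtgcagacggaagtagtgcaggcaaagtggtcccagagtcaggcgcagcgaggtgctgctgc
Gadd45a: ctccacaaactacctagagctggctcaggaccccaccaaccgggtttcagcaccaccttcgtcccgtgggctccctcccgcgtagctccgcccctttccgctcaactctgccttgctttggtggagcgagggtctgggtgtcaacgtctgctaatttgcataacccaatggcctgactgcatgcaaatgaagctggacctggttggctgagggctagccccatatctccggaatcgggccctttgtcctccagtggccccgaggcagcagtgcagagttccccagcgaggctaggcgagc
Zfp398: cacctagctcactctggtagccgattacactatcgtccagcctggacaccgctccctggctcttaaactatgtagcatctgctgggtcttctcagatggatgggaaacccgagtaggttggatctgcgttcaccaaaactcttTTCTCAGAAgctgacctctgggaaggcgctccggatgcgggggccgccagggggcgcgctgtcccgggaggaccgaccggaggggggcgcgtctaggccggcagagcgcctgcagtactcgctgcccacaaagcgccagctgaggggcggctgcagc
The Tigar window is chr6:127109503-127109802 (minus strand), that of Gadd45a chr6:67037358-67037657 (minus strand) and that of Zfp398 chr6:47835411-47835710 (plus strand). The Cish window held 2 copies of the motif at the start, Ubash3b, Csf2rb2 and Zfp398 held 1 each, and Tigar and Gadd45a held none. The regions on the Ubash3b and Csf2rb2 windows had STAT5A scores of 391.6 and 195.1 and of 208.8 and 50. Those on Zfp398 had 354.3 and 285.1 for STAT5A and 37.1 and 66.6 for LSD1, and those on Gadd45a had 86.7 and 90.6 for LSD1.

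The same contrast held across all windows. The motif TTCNNNGAA, which reads the same on both strands, was present in 54.1% of the windows of STAT5A alone (79 of 146, 95% Wilson interval 46.0 to 62.0%). It was present in 23.1% of the shared windows (21 of 91, 15.6 to 32.7%) and in 1.89% of the windows of LSD1 alone (11 of 583, 1.06 to 3.35%). Over all 32851 windows the share was 8.30%, so that the windows of LSD1 alone lay below and both STAT5A sets above it. The single-factor classes leave out every window of the other factor, which bears on these shares. With the other factor ignored, the motif was in 4.37% of the windows in both LSD1 lists (48 of 1099). For the windows in both STAT5A lists it was 38.8% (150 of 387). Without STAT5A replicate 1 the shares for STAT5A alone, shared and LSD1 alone were 15.0%, 6.74% and 2.84%, and without replicate 2 they were 35.9%, 16.4% and 2.06%. The shared windows thus lay above all windows with replicate 1 and below them without it. These intervals cover counting error only, and neighbouring windows can share bases. Widening the spacer by 1 base, to any 4 bases between TTC and GAA, gave 8.90%, 8.79% and 3.60% for STAT5A alone, shared and LSD1 alone against 6.95% over all windows. The ETS-type sequence CCGGAAG, searched on both strands, did not separate the classes. It was in 21.9%, 24.2% and 24.4% of them, each above the 8.86% of all windows. The sequence AGATAA, which GATA factors prefer, was in 9.59%, 13.2% and 4.97% (all windows 11.2%), and TGTGGT, which RUNX factors prefer, was in 10.3%, 20.9% and 11.5% (all windows 16.8%). Base composition moved with the class, since median GC content was 58.7% for STAT5A alone, 63.0% for shared, 65.7% for LSD1 alone and 52.7% for all windows. Within the most GC-rich of 3 equal groups of windows, 58.33% GC or more, the motif was in 39 of 75 windows of STAT5A alone, 17 of 69 shared windows and 8 of 504 of LSD1 alone, against 4.63% of all windows there.

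Where a window held the motif, the regions of STAT5A replicate 1 were centred near it, and those of STAT5A replicate 2 and of LSD1 further away. In the 79 windows of STAT5A alone the median distance from the motif to the centre of the region was 15 bp in replicate 1 and 63 bp in replicate 2. In the 21 shared windows it was 26 and 67 bp for the STAT5A replicates and 94 and 88 bp for the LSD1 replicates. The region itself held the motif in 19 and 13 of the 21 for STAT5A and in 9 and 12 for LSD1. The STAT5A values thus differed between replicates by more than replicate 2 differed from LSD1, and the difference between the factors has no test with 2 lists each.

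**Figure D1:**
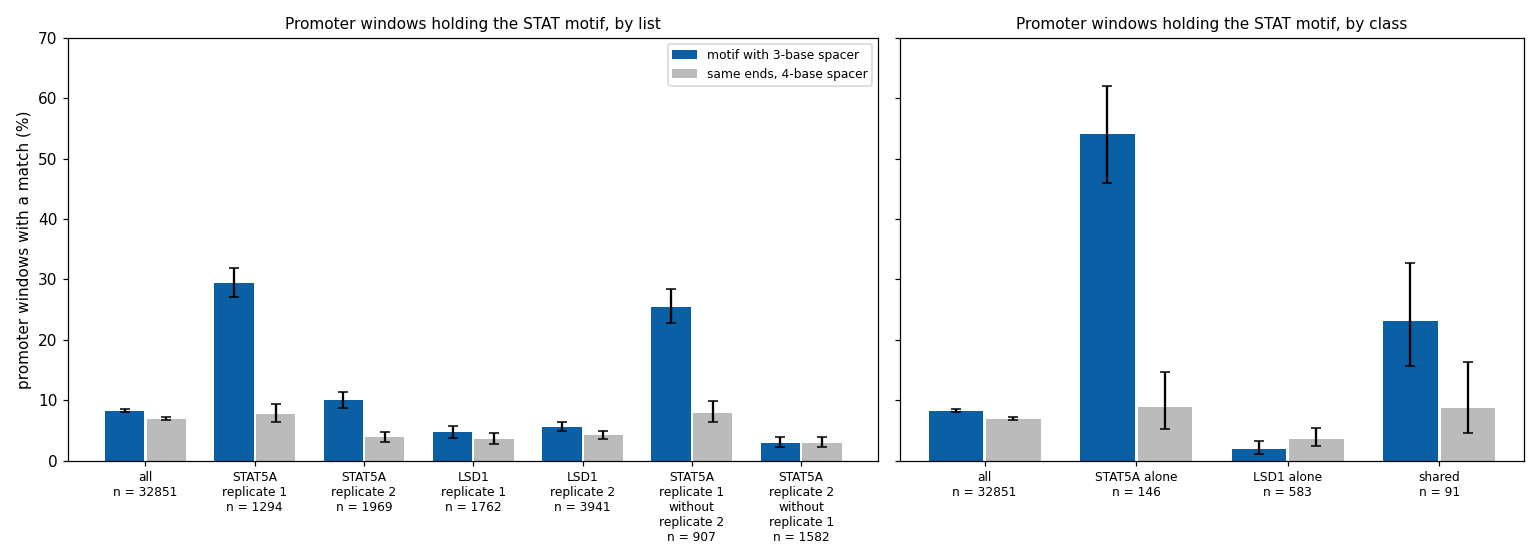
Share of RefSeq promoter windows (vertical axis, percent) that hold the STAT motif with its 3-base spacer (blue) or the same TTC and GAA with a 4-base spacer (grey), by list on the left and by class on the right. Error bars are 95% Wilson intervals and n is the number of windows. The blue bar reaches 54.1% for STAT5A alone and 1.89% for LSD1 alone, and STAT5A replicate 1 (29.4%) stands above replicate 2 (10.0%).

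The 2 STAT5A libraries did not behave alike, which bears on each comparison that follows. The motif was in 29.4% of the promoter windows overlapped by STAT5A replicate 1 and in 10.0% of those overlapped by replicate 2, beside 4.71% and 5.58% for the LSD1 replicates. Windows called in STAT5A replicate 1 without replicate 2 held it in 25.5% of cases (231 of 907), and windows called in replicate 2 without replicate 1 in 2.97% (47 of 1582). Counted over all regions, 44.0% of replicate 2 had its centre within 1 kb of either end of a protein-coding gene, close to the 40.6% and 42.3% of the LSD1 replicates, while replicate 1 had 16.0%. Of the replicate 2 regions, 34.0% were found in STAT5A replicate 1, and 24.9% and 43.3% in LSD1 replicates 1 and 2. Scores in each list were whole multiples of a step. The inverse of that step, which is a relative depth if 1 step is 1 read, was 1.34 and 1 for the STAT5A and 2.02 and 1.88 for the LSD1 replicates. The labels call the replicates biological, and each p-value below treats a list as 1 sample.

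Neither the number of regions nor their general position separated the factors beyond the spread between replicates. The mean share at gene ends was 11.5 percentage points higher for LSD1, but the groups overlapped, and the difference had p = 1 in a two-sided exact permutation test of 2 against 2 lists, where the smallest p is 0.333. Without STAT5A replicate 1 it was 2.55 points lower for LSD1 (−2.55). The number of regions differed by −0.09 on the log2 scale (LSD1 minus STAT5A, exact permutation p = 1). The share of regions overlapping the pooled HDAC3 list with IL3 was 4.29% and 7.29% for STAT5A and 9.27% and 6.43% for LSD1, a mean difference of 2.06 points (exact permutation p = 0.667).

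The strongest regions of each factor were often found by the other factor, though less often than by the other replicate. Of the 500 highest-scoring regions of STAT5A replicate 1, 41.6% and 49.0% were found in LSD1 replicates 1 and 2, and 82.8% in STAT5A replicate 2. For STAT5A replicate 2 the values were 50.8% and 68.0% in LSD1 and 90.6% in the other STAT5A list. In the opposite direction, 59.6% and 39.6% of the top 500 of LSD1 replicate 1 were found in STAT5A replicates 1 and 2, and 96.2% in LSD1 replicate 2. LSD1 replicate 2 gave 58.0% and 46.2% in STAT5A and 87.0% in LSD1. All 8 cross-factor shares were below all 4 shares between replicates. The mean cross-factor share was 52.3% for STAT5A in LSD1 and 50.8% for LSD1 in STAT5A, and these means were 59.4% and 42.9% without STAT5A replicate 1 and 45.3% and 58.8% without replicate 2. Lower in the lists the order changed in 3 of the 4. In the fifth of 10 equal parts of replicate 1, 8.99% of regions were found in STAT5A replicate 2 and 13.1% and 19.8% in the LSD1 lists. In the last part the values were 2.36%, 5.31% and 10.5%. In the last part of STAT5A replicate 2, 11.6% were found in STAT5A replicate 1, and 10.0% and 27.1% in LSD1 replicates 1 and 2. In that of LSD1 replicate 2 the shares were close, at 11.9% in LSD1 replicate 1 and 12.2% in STAT5A replicate 2, with STAT5A replicate 1 the highest. LSD1 replicate 1 was found more often in its own replicate in every part, from 94.6% in the first to 37.6% in the last.

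**Figure D2:**
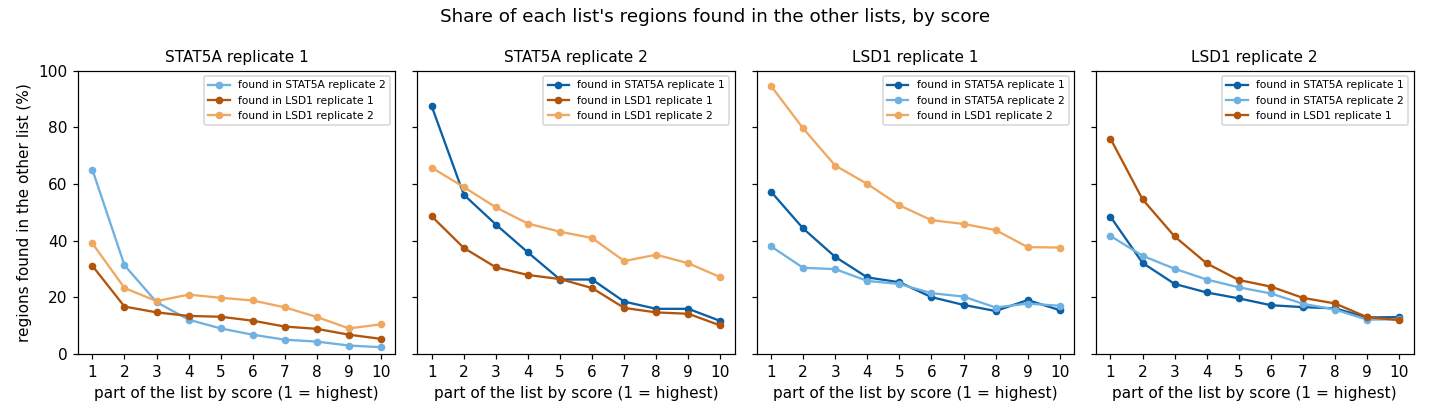
Share of regions found in each of the other 3 lists (vertical axis, percent) over the 10 parts of each list ordered by score, 1 being the highest (horizontal axis), with 1 panel per list and 1 colour per list searched. In the first part the other replicate leads in all 4 panels, and in both STAT5A panels an LSD1 list passes it further down. In the panel of LSD1 replicate 2 the 3 lines meet in the last parts.

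Merged over the 4 lists there were 26997 regions, of which 886 (3.28%) were STAT5A alone, 1726 (6.39%) LSD1 alone and 710 (2.63%) shared. Most merged regions were in 1 list, with 9583 in STAT5A replicate 1, 2246 in STAT5A replicate 2, 2018 in LSD1 replicate 1 and 5583 in LSD1 replicate 2. The class sizes follow the lists that define them. When STAT5A rested on replicate 1 there were 10509 regions of STAT5A alone and 1399 shared, and when it rested on replicate 2 there were 3153 and 1303. Regions of one factor alone were not far from the other factor, since 19.8% of STAT5A alone and 22.9% of LSD1 alone had a region of the other factor within 1 kb, and the median distances were 8150 and 8947 bp. The pooled LSD1 list held 18.3% of the regions of STAT5A alone, and the pooled STAT5A list held 11.4% of LSD1 alone.

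Regions of STAT5A alone with the best mean place were mostly distal. The first lay inside Jazf1 (a zinc finger gene) at chr6:52802243-52802458, 34286 bp from the gene's nearer end, with scores of 675.0 and 230.1 in the 2 STAT5A lists. These scores placed it in the upper 0.147% and 0.502% of its lists. Pigk, for an enzyme of GPI anchor attachment, followed with 615.3 and 220.1 at chr3:152762375-152762608. Psmd3, for a proteasome subunit, had its region 46 bp from a gene end (529.5 and 175.1), and Mzt2, for a spindle component, 38 bp (428.9 and 130.0). The others of the first 10 were nearest Adra2a, Gm5785, Ubash3b, Usp12, Mxi1 (a MYC-network repressor) and Fli1 (an ETS factor), and none of the 10 was in a replicate list of STAT5A without IL3 (that of Psmd3 was in the pooled one). The region near Usp12 overlapped a stretch to which all 6 pooled lists of the series contributed by chained overlaps, though the pooled STAT5A and HDAC3 lists without IL3 did not overlap the region itself.

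The leading regions of LSD1 alone were already LSD1 regions without IL3. The first, at chr6:127109668-127109864 and 214 bp from Tigar, had scores of 126.3 and 191.9 in the LSD1 lists with IL3. Sae1 (a SUMO-activating enzyme subunit) at chr7:16326234-16326430 had 113.9 and 159.9, and Ptk2 (focal adhesion kinase) at chr15:73442491-73442693 had 118.8 and 151.9. Arhgap25, Trdmt1, Pcca, 2300002M23Rik, Gpr141, Ramp1 and Clasp2 were nearest the other regions. All 10 were called in both LSD1 replicates without IL3, although replicate 1 without IL3 held 1005 regions in all. Those near Tigar, Arhgap25, Pcca and Gpr141 also overlapped the pooled STAT5A list without IL3.

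Among shared regions the best mean place over the 4 lists belonged to one 11864 bp from Nek6 (a mitotic kinase), at chr2:38471849-38472150, with scores of 473.6 and 220.1 for STAT5A and 84.2 and 106.6 for LSD1. A region inside Dnah8 (387.8 and 255.1, 64.4 and 162.6) and one inside Rara, the retinoic acid receptor alpha gene (440.0 and 235.1, 56.9 and 90.6), were also among the first 10. The region 4816 bp from the nearer end of Pim1 (a survival kinase and STAT5 target) held the highest score of STAT5A replicate 2, 570.2, and had 413.9 in replicate 1 and 47.0 and 90.6 in the LSD1 lists. It was one of 104 shared regions (14.6%) that overlapped such a 6-list stretch, as were those near S1pr1 and Ccdc102a. Adgre1, F2rl2, Heatr1 and Moxd2 were nearest the rest.

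At the 710 shared regions the order by score was closer between replicates than between the factors. Spearman's rho over regions was 0.565 between the STAT5A replicates and 0.709 between the LSD1 replicates. The 4 cross-factor values were 0.121 and −0.023 for STAT5A replicate 1 with LSD1 replicates 1 and 2, and 0.197 and 0.148 for STAT5A replicate 2, with a mean of 0.111. Over all overlapping pairs of 2 lists, not limited to the regions of all 4, rho was 0.466 and 0.598 between replicates and 0.170 and 0.179 (STAT5A replicate 1) and 0.317 and 0.297 (replicate 2) between factors. These are descriptions over regions that share libraries, and carry no p. Of the 178 regions in the upper 25% of a list, 103 were in the upper 25% of both STAT5A lists, 127 of both LSD1 lists, and 40 to 53 of a STAT5A and an LSD1 list. Without the 104 regions on 6-list stretches, the replicate values over 606 regions were 0.587 and 0.671 and the cross-factor mean was 0.12. With STAT5A replicate 1 left out the cross-factor mean was 0.283, and with replicate 2 left out 0.139, each over the shared regions of the remaining 3 lists. Over all 4 lists it was 0.21 over the 106 shared regions at gene ends and 0.06 over the 604 away from them.

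**Figure D3:**
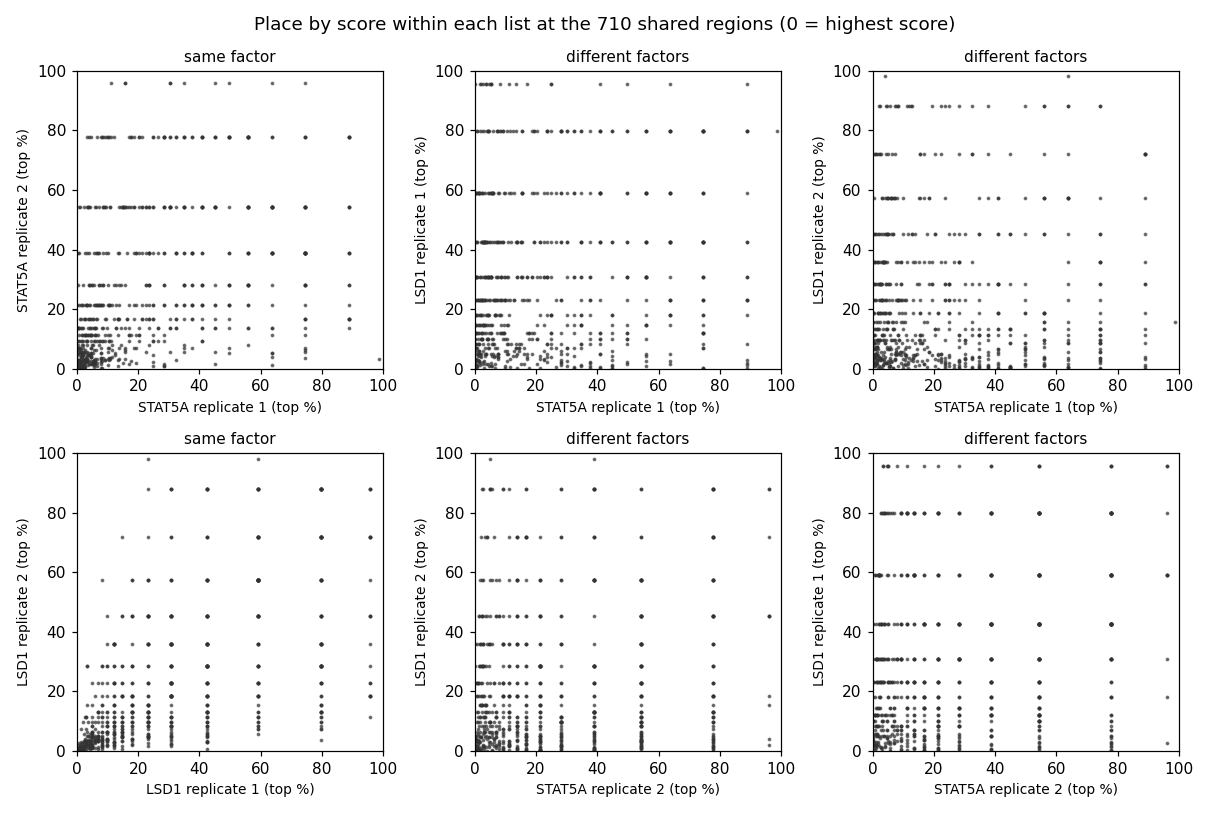
Place by score within each list at the 710 shared regions, as the percentage of the list counted from its highest score (0 is the highest, both axes), with 1 panel per pair of lists. Points gather toward the diagonal in the same-factor panels (rho 0.565 and 0.709) and spread over the plane in the other panels (rho −0.023 to 0.197), and rows and columns of points are tied scores.

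Some shared regions stood high for one factor and much lower for the other (chosen after their values were seen). A region inside Dusp16, which encodes a JNK phosphatase, had STAT5A scores of 369.2 and 115.0 in the upper 1.99% and 3.36% of the lists. Its LSD1 scores of 14.9 and 21.3 stood at 95.6% and 72.0%. Xirp1 (551.9 and 145.0, 19.8 and 21.3) and Foxn3 (350.5 and 125.0, 19.8 and 18.7) were alike. The reverse held inside Mrtfa, a serum response factor coactivator gene, with LSD1 scores of 138.7 and 215.9 in the upper 0.17% and 0.0951% and STAT5A scores of 48.5 and 30.0 at 37.6% and 77.7%. A region 98646 bp from Skap2 had 123.8 and 215.9 for LSD1 and 26.1 and 40 for STAT5A.

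Position relative to genes differed by class, in an order that turned without STAT5A replicate 1. Gene ends within 1 kb were found for 39.9% of LSD1 alone (689 of 1726, 95% Wilson interval 37.6 to 42.2%), 21.3% of STAT5A alone (189 of 886, 18.8 to 24.1%) and 14.9% of shared regions (106 of 710, 12.5 to 17.7%). All merged regions gave 32.6%. Without STAT5A replicate 1 the shares were 32.9%, 38.7% and 41.4% in the same order of LSD1 alone, STAT5A alone and shared, and without replicate 2 they were 47.7%, 15.3% and 14.4%. Regions more than 50 kb from any gene end made up 10.1%, 15.3% and 20.8% of LSD1 alone, STAT5A alone and shared. Score moved with position, since 18.6% of the regions of LSD1 alone with a mean place in the upper 10% were at gene ends, against 47.4% of those beyond the upper 30%. Among the regions of the upper 10% the 2 single-factor classes were close, at 18.6% (33 of 177) for LSD1 alone and 20% (32 of 160) for STAT5A alone. Shared regions of the upper 10% had 8.98% by STAT5A place and 7.34% by LSD1 place.

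HDAC3, which the classes did not use, overlapped a larger share of shared regions than of either single-factor class. The pooled HDAC3 list with IL3 (1208 regions) overlapped 36.9% of shared regions (262 of 710, 33.4 to 40.5%), 5.62% of LSD1 alone (97 of 1726) and 2.71% of STAT5A alone (24 of 886). The share over all merged regions was 3.56% (961 of 26997), so that most regions with HDAC3 were not among the shared ones. Without the regions on 6-list stretches these shares were 26.4%, 5.02% and 2.60%. HDAC3 replicate 1 (683 regions) gave 29.7%, 2.55% and 2.37%, and replicate 2 (234 regions) gave 1.27%, 0.29% and 0.113%, in the same order of shared, LSD1 alone and STAT5A alone. Without STAT5A replicate 1 the pooled HDAC3 list overlapped 24.4%, 9.32% and 1.52%, and without STAT5A replicate 2 27.9%, 6.87% and 0.885%. Without LSD1 replicate 1 the shares were 27.8%, 2.41% and 4.15%, and without LSD1 replicate 2 33.9%, 3.62% and 6.18%. Shared regions were highest each time, while the order of the single-factor classes turned when an LSD1 list was left out. Higher-scoring regions overlapped HDAC3 more often in each class, and the gap between classes was present at like places for a single factor. The width of the merged regions was not matched. In the upper 10% by STAT5A place the shares were 45.7% for shared (112 of 245) and 8.75% for STAT5A alone (14 of 160), and in the upper 10% by LSD1 place 58.7% for shared (128 of 218) and 15.3% for LSD1 alone (27 of 177). Without IL3, the pooled HDAC3 list overlapped 43.0% of shared regions, 19.4% of LSD1 alone and 2.82% of STAT5A alone.

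LSD1 occupied most of both its classes before IL3 was given back. The pooled LSD1 list without IL3 overlapped 80.1% of LSD1 alone and 81.4% of shared regions, and 15.3% of STAT5A alone. Without STAT5A replicate 1 these shares were 82.0%, 81.5% and 16.8%, and without replicate 2 80.3%, 84.0% and 10.2%. In the single lists, replicate 1 without IL3 gave 12.4%, 18.5% and 0.113% and replicate 2 (15783 regions) 76.9%, 77.7% and 13.7%. All 177 regions of LSD1 alone in the upper 10% were in the pooled list without IL3. STAT5A without IL3, by its pooled list, overlapped 5.87% of STAT5A alone, 33.7% of shared regions and 21.3% of LSD1 alone. These shares were 11%, 42.7% and 21.1% without STAT5A replicate 1 and 2.06%, 26.7% and 28.4% without replicate 2, where LSD1 alone came above shared. In the single STAT5A lists without IL3 the shares were 1.47%, 8.17% and 1.33% in replicate 1 (352 regions) and 4.97%, 23.4% and 18.8% in replicate 2 (4504 regions). Without the regions on 6-list stretches the pooled value for shared regions was 22.3%, beside 20.7% for LSD1 alone.

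**Figure D4:**
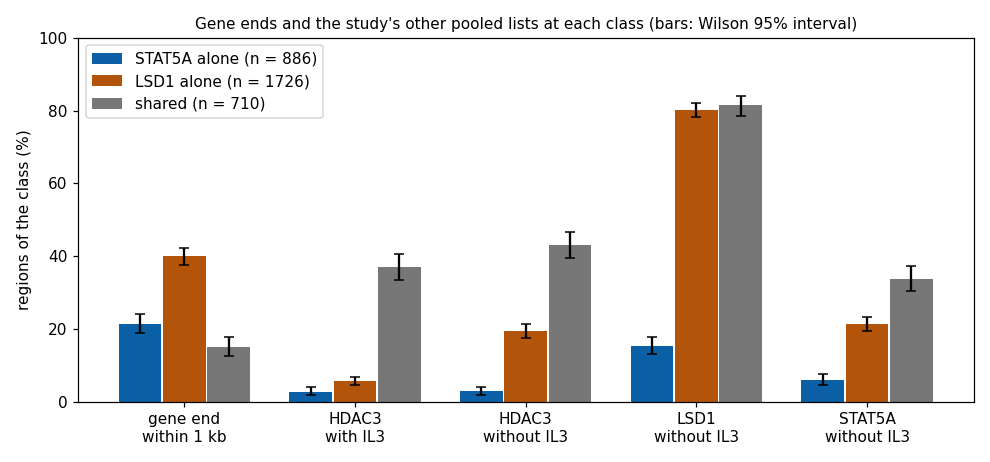
Percentage of the regions of each class (vertical axis) that lie within 1 kb of a gene end or overlap the pooled lists of HDAC3, LSD1 or STAT5A in the named condition. Blue is STAT5A alone, brown LSD1 alone and grey shared, and error bars are 95% Wilson intervals. Grey stands highest for HDAC3 (36.9% with IL3) and brown for gene ends (39.9%, an order not kept without STAT5A replicate 1), and brown and grey are near 80% for LSD1 without IL3.

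Genes were classed in the same way by regions within 10 kb of either end. Of 21887 protein-coding genes, 401 (1.83%) had STAT5A alone, 777 (3.55%) LSD1 alone and 1725 (7.88%) regions in all 4 lists, while 10835 had none. In the same order there were 716, 1636 and 2553 such genes without STAT5A replicate 1 and 1746, 1605 and 2584 without replicate 2. A shared gene need not hold a shared region, since the factors can lie at different points of the same 10 kb. Genes with most regions of one factor and none of the other included Gbp5 (an interferon-induced GTPase), Git1, Rsph9 and Tipin, each with 5 STAT5A regions over the 2 lists. For LSD1 they were Zbtb26 with 3 and 4 regions, Nol12 with 4 and 2, Pde4a with 1 and 5, and Ankrd13a, Cd81 and E2f2 with 5 in all.

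STAT5 targets and feedback inhibitors, a list of 20, were shared genes in 11 cases (55%, against 7.88% of all genes). None was a single-factor gene, but a list of this size is too short to set this against the 1.83% and 3.55% of all genes. The list held 11 shared genes and 2 of LSD1 alone without STAT5A replicate 1, and without replicate 2 it held 13 shared genes and 2 of STAT5A alone. The shared share of all genes was then 11.7% and 11.8%. Cish, Socs1, Socs2, Socs3, Osm, Lif, Pim1, Dusp5, Spred1, Spred2 and Id1 were the 11. The median number of regions per gene on this list was 1.5 for STAT5A and 1.25 for LSD1, against 0 for both over all genes. Socs2, for a receptor feedback inhibitor, had best scores of 313.3 and 385.1 for STAT5A, in the upper 3.09% and 0.0637%, and of 17.3 and 21.3 for LSD1, at 79.8% and 72.0%. Socs3 reached 276.0 and 310.1 for STAT5A, and its LSD1 scores of 22.3 and 74.6 stood at 42.5% and 2.90%. Osm, a cytokine gene induced by STAT5, had 4 regions in each STAT5A list (best scores 399.0 and 265.1) and 1 and 2 LSD1 regions (39.6 and 61.3). Bcl2l1, the survival gene that encodes BCL-XL, had 3 and 0 STAT5A and 0 and 1 LSD1 regions, and Cdkn1a had 3 and 2 against 0 and 1. Bcl6, a gene that STAT5 is known to repress, had no region of either factor.

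The Cish locus shows how close the factors lay. At its start the STAT5A regions were chr9:107296592-107296764 in replicate 1 and chr9:107296495-107296675 in replicate 2, with centres 19 bp after and 74 bp before the start. Their scores were 842.8 and 300.1. The LSD1 regions, chr9:107296747-107296895 and chr9:107296825-107297021, had centres 162 and 264 bp after the start and scores of 27.2 and 29.3. The promoter window therefore counted as STAT5A alone. Just past it, the LSD1 region of replicate 1 overlapped the STAT5A region of replicate 1 and the LSD1 region of replicate 2. The merged region at the start was thus in all 4 lists and counted as shared, so the class here depends on where the window ends. Further downstream, near 11.2, 12.2 and 16.3 kb from the start, all 4 lists had regions. The LSD1 scores there, 34.7 to 74.6, were higher than at the start, and the STAT5A scores were 120.0 to 667.5. Within 10 kb of the gene's ends there were 4 and 4 STAT5A and 5 and 6 LSD1 regions. At Pim1 the region about 10.1 kb after the start was the highest of 3 lists within 20 kb, and STAT5A replicate 1 had 421.4 at 9.0 kb beside 413.9 there.

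**Figure D5:**
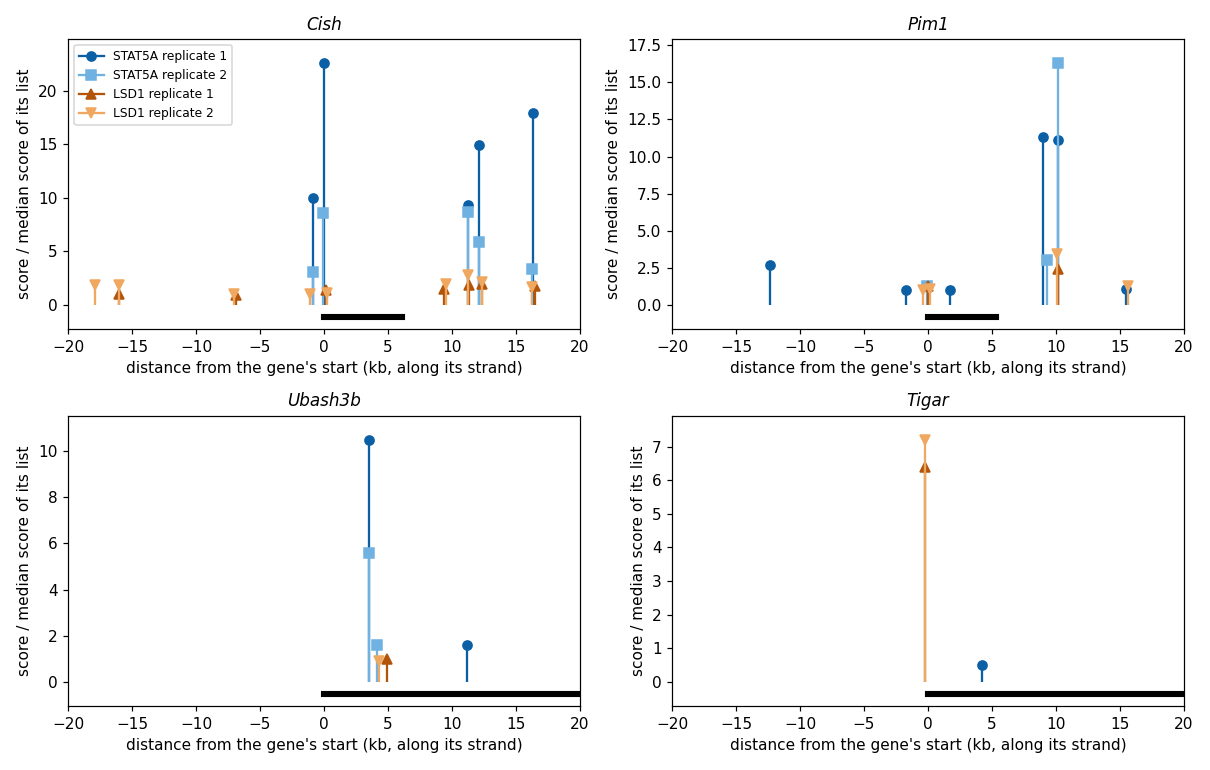
Called regions within 20 kb of the annotated start of Cish, Pim1, Ubash3b and Tigar, by distance of the region's centre from the start along the gene's strand (horizontal axis, kb). Heights are the score divided by the median score of the same list (vertical axis, linear), so that heights of different lists are not on a common scale, and the black bar is the gene. STAT5A stands at the start of Cish with LSD1 regions beside it. All 4 lists meet about 10.1 kb after the start of Pim1, STAT5A leads inside Ubash3b and LSD1 stands at the start of Tigar.

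Components of the IL3 receptor and JAK-STAT pathway, a list of 18, included 6 shared genes (33.3%, beside 7.88% of all genes). These were Stat5a, Grb2, Csf2rb2, Jak2, Shc1 and Jak3. The list also held 2 genes of LSD1 alone (11.1%), too few to set against the 3.55% of all genes. With STAT5A replicate 1 or replicate 2 left out the counts of shared genes and of LSD1 alone were 8 and 4 each time. The shares of all genes for LSD1 alone were then 7.47% and 7.33%. The 2 genes of LSD1 alone were Sh2b3, which encodes the adaptor LNK that restrains JAK2, with 3 and 2 LSD1 regions (best scores 27.2 and 32.0), and Tyk2, a JAK family kinase, with 1 and 1 (19.8 and 24.0). The beta chain gene Csf2rb had 1 STAT5A region in each list (216.3 and 60.0) and LSD1 in replicate 1 (24.8). Of 20 immediate early genes 8 were shared (40%, against 7.88% of all genes). None was of one factor alone, in a list too short to set this against all genes. The counts of shared genes and of LSD1 alone were 10 and 3 without STAT5A replicate 1 and 11 and 2 without replicate 2. Zfp36, for an mRNA decay factor, had the highest LSD1 scores among them (76.8 and 183.9) beside STAT5A scores of 186.5 and 290.1, and Ier3 and Junb were also shared.

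Apart from the ribosomal protein genes, the other lists held at most 2 genes of LSD1 alone each, too few to set against the 3.55% of all genes. Among 16 genes of the LSD1 and CoREST complex, Zmym2 and Gse1 had LSD1 alone and Rcor3 was shared, while Kdm1a had 1 region in STAT5A replicate 2 and 1 in LSD1 replicate 1. Gfi1b, for a repressor that recruits LSD1, had 2 and 2 LSD1 regions in the upper 2.60% and 1.66% (59.4 and 90.6) and 2 and 0 STAT5A regions. Of 16 erythroid and megakaryocytic genes, Epor (the erythropoietin receptor) had LSD1 alone, with best scores of 34.7 and 48.0, and Nfe2, Tal1, Fli1 and Gata1 were shared. Nfe2 was high for both factors (346.8 and 220.1, 64.4 and 119.9). Of 20 haematopoietic transcription factor genes 5 were shared, and Myb had LSD1 alone (24.8 and 40). Lyl1 had the highest LSD1 scores on that list (74.3 and 141.2) with 4 and 0 STAT5A regions. Cebpa and Smad2 were the genes of LSD1 alone among 19 myeloid and 15 TGF-beta genes, where 3 (15.8%) and 4 (26.7%) were shared. Shared genes made up 25% of the erythroid and of the transcription factor list and 6.25% of the LSD1 complex list. The share over all genes was 7.88%, and lists of this size are short.

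Survival and ribosomal protein genes lacked regions less often than all genes. Genes of other tissues lacked them more often, and B-lineage genes were near the share of all genes. Except for the ribosomal list, these lists hold 18 or 20 genes, too few to weigh such differences. Of 18 B-lineage genes 10 had no region (55.6%, against 49.5% of all genes). None was shared, but 18 genes are too few to set this against the 7.88% of all genes. Tcf3 was of STAT5A alone (26.1 and 30.0) and Dntt of LSD1 alone (19.8 and 24.0). Cd79a had a STAT5A region in each list (70.9 and 205.1) and LSD1 regions in replicate 2 only. Of 20 genes of other tissues 13 had no region (65%), Alb had STAT5A alone (74.6 and 40) and Ckm was shared. Of 18 survival and apoptosis genes 5 were shared (27.8%, against 7.88% of all genes) and 6 had no region (33.3%, against 49.5%). Of the 89 ribosomal protein genes 14 had no region (15.7%). This list held 6 genes of STAT5A alone (6.74%), 4 of LSD1 alone (4.49%) and 13 shared (14.6%). The shares of all genes were 1.83%, 3.55% and 7.88% in that order, so that LSD1 alone was near its share. The ribosomal list was not recounted with a list of regions left out. The 6 of STAT5A alone were Rpl24 (298.3 and 50), Rpl27 (212.6 and 50), Rpl12, Rpl35, Rps16 and Rps27. Of these, Rpl12 and Rpl35 had 22.4 and 25, near the weakest scores of their lists.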

How the data were processed

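ChIP-seq of STAT5A and LSD1 in Ba/F3 cells with IL3 was used, as 2 replicate lists of called regions per factor and 1 list per pooled group. The submitters' processing notes name Trimmomatic 0.30, Bowtie2 2.1.0, Picard 1.92, HOMER 4.8 and mm10. The authors deposited a score with each region. Its meaning, like the caller's settings, control and threshold, was not given in the sources used here. Low scores lay within 0.1 of whole multiples of 1 step per list. Scores were used as ranks within a list, since scores of separate lists are not comparable, and raw read depth is unknown.

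Regions on assembled chromosomes were compared in Python 3.11.15 (numpy 2.4.6, pandas 2.3.3, scipy 1.17.1, matplotlib 3.10.9). Lists were merged and regions counted as shared at 1 bp of overlap or more. Gene ends came from RefSeq protein-coding genes without strand, promoter windows from RefSeq (GRCm38.p6), with chromosome 18 not used there. Region sequences were not analysed here, so the motif count runs on promoter windows in place of the called regions. List values were tested by two-sided exact permutation of 2 against 2 lists. The steps were tested on simulated data with planted classes, overlaps and motifs.

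The text names the genes nearest the 10 best-placed regions of each class and up to 6 per gene list by best-placed region. It also names up to 6 with most regions of one factor and none of the other (ties in alphabetical order, not all printed), and any STAT5 target or LSD1 complex gene. Members and lists were chosen with earlier results of these data known. Alternatives left out each list, cut lists to 5000 regions, removed regions overlapping a stretch merged from regions of all 6 pooled lists, and changed overlap, windows, HDAC3 list and pooling.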

Additional observations from a re-analysis of the deposited data

How the results depend on the processing

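Leaving out each of the 4 lists in turn moved the regions of STAT5A alone between 1013 and 10509, LSD1 alone between 2301 and 7355 and shared between 806 and 1399. The genes moved between 576 and 1746 (STAT5A alone), 1056 and 2205 (LSD1 alone) and 1900 and 2649 (shared). The gene-end difference ran from −2.55 (without STAT5A replicate 1) to 25.5 points, and the log2 difference in regions from −0.649 to 0.463, being 0.325 without LSD1 replicate 1. The cross-factor rho ran from 0.122 to 0.283, with its highest value without STAT5A replicate 1. Promoter motif share ran from 15.0% (without STAT5A replicate 1) to 52.3% for STAT5A alone, from 2.03% to 3.55% for LSD1 alone and from 6.74% to 27.9% for shared. HDAC3 share ran from 0.885% to 6.18%, 2.41% to 9.32% and 24.4% to 33.9% in that order, and the share at gene ends from 15.3% to 38.7%, 32.9% to 47.7% and 14.4% to 41.4%. Overlap with LSD1 without IL3 ran from 10.2% to 30.0%, 55.9% to 82.0% and 72.4% to 84.0%, and with STAT5A without IL3 from 2.06% to 11.8%, 14.9% to 28.4% and 26.7% to 42.7%. With 1 list left for a factor there is no test.

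With the 5000 highest-scoring regions of each list, shared regions fell to 412 and shared genes to 555, and the cross-factor rho was 0.0135. The centre distance was 49.8 bp against 54.0 bp, and 37.6% of the top 500 LSD1 regions were found by STAT5A. Motif share was then 64.9% for STAT5A alone and 52.6% for shared, and HDAC3 share 5.40%, 11.8% and 43.4% for STAT5A alone, LSD1 alone and shared. Requiring 50% overlap gave a centre distance of 37.9 bp. Pooled lists in place of replicates gave 10356, 11900 and 5187 regions and 1342, 3285 and 6877 genes in the same order. Genes within 1 kb numbered 202 for STAT5A alone and 363 shared, and 3588 were shared within 25 kb. Without the regions on stretches merged from all 6 pooled lists HDAC3 was at 26.4% of shared regions. HDAC3 replicate 1 gave 2.55% of LSD1 alone and 29.7% of shared, and replicate 2 gave 0.113%, 0.29% and 1.27%. The cause of these shifts was not tested, beyond what fewer lists, regions or base pairs give by construction. Promoter windows in place of gene ends gave a difference of 8.69 points. The motif and class shares, their alternatives and the promoter windows were chosen after seeing the data.

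With the replicate number as a block, the differences were 11.5 points for gene ends, 2.06 points for HDAC3 and −0.0931 on the log2 scale for regions, each with an exact sign-flip p of 1 (smallest possible 0.5), so no call changed. Same-numbered lists of the factors deviated together with r = 0.107 over 4955 regions found by both factors, and the labels do not say that numbers pair the samples. The planned motif count in called regions was not run. Among the named genes no single-factor difference changed sign, but only the wider window of 25 kb could have changed it. Leaving out lists or regions, or narrowing the window, cannot add regions of the other factor. The caller's threshold limits each class, since a region missing from a list may lie under it. Whether depth bears on this was not tested.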
